A study of Mus musculus with 33 samples.

Results

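Eph receptors and ephrins were followed across the RNA-seq libraries of engineered colorectal cancer organoid lines. The members were the 10 genes Ephb2, Ephb3, Ephb4, Ephb6, Epha1, Epha2, Epha4, Epha7, Efnb1 and Efnb2, found by matching the Ensembl mouse identifiers of the count files to these symbols, and they are 10 of the 32285 gene identifiers in each file. All 10 passed the filter on low values (3 or more libraries with 1 or more CPM, the counts scaled to a common library size), as did 13606 identifiers in all. Epha7 did so with 4 libraries, 3 of in vivo AKP and 1 of line #iii. The series holds 33 QuantSeq libraries, which read the 3′ ends of transcripts, from 8 organoid lines that had all been kept for 3 days as organoids, with the last 24 h in basal medium lacking growth factors.

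In vivo AKP (6 libraries) was grown from colon tumours of mice with Apc fl/fl and Trp53 fl/fl among their engineered alleles, together with Cdx2-creERT2, a tamoxifen-activated Cre under the promoter of an intestinal epithelial gene. The mice received tamoxifen at 8 to 10 weeks of age and tumours were collected 6 weeks later. Mini-colon AKP #i to #v (3 libraries each) were grown from tumours raised in mini-colons, which are tube-shaped colon epithelia on a microfluidic chip whose cells carry the same engineered alleles and a Cre switched on by blue light. The study's text names line #v as crypt-enriched and line #i as lumen-enriched by the origin of their tumours, and the symbols of its plots mark lines #iii and #iv as crypt-enriched and line #ii as lumen-enriched. Each of these is 1 line. Organoid AKP (6 libraries) had the light-driven Cre switched on in ordinary organoids and was passaged alongside the mini-colon lines. Control organoids (6 libraries) were of the same inducible genotype without induction, so they too carried these alleles. The study treats the libraries of a line as separate cultures and independent sample sets, while the labels tie no library to an animal, tumour or derivation, so each p-value speaks to the spread between cultures under 1 line name.

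Total counts ran between 2438672 and 8256526 per library, with a median of 3748649. The names of the deposited files carry a code letter, E or F, whose meaning is not stated: lines #i, #ii and #iii have E, lines #iv and #v have F, and in vivo AKP, organoid AKP and control have 3 libraries of each. Between 22.2% and 47.2% of the 13606 genes differed between the letters within these 3 lines (edgeR, adjusted p under 0.05), so within-letter values stand beside the results. Epithelial markers summed to 3353 to 3661 CPM (in vivo AKP), 3275 to 3750 CPM (organoid AKP) and 9749 to 11116 CPM (control), while endothelial markers reached at most 30.1, 7.41 and 3.03 CPM in the same order. In these bulk libraries, fewer cells of a type and less RNA per cell cannot be told apart.

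Eph receptors are receptor tyrosine kinases that are activated by ephrins on the surface of a neighbouring cell, and the ephrin-bearing cell signals back, so that the pair sorts cells into compartments at their contacts. Ephrin-A ligands are held by a lipid anchor and ephrin-B ligands span the membrane, and EphA and EphB receptors largely keep to the ligands of their own letter. In the intestinal epithelium EphB2 and EphB3 are known as crypt-base receptors that WNT and β-catenin/TCF signalling switches on, while ephrin-B1 and ephrin-B2 are carried by differentiated cells nearer the lumen, and this opposed pattern is known to keep proliferating cells in the crypt.

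The genes lie on several chromosomes (GRCm39). Ephb2 (ENSMUSG00000028664) spans chr4:136374850-136563351, Ephb3 (ENSMUSG00000005958) chr16:21023495-21042057, Efnb1 (ENSMUSG00000031217) chrX:98179680-98205454 and Efnb2 (ENSMUSG00000001300) chr8:8667226-8711249. The other receptors are Ephb4 at chr5:137348274-137376931, Ephb6 at chr6:41581983-41600264, Epha1 at chr6:42335406-42350208, Epha2 at chr4:141028540-141056695, Epha4 at chr1:77343822-77492816 and Epha7 at chr4:28813034-28967507.

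All 10 members matched a RefSeq promoter window (GRCm38.p6, 250 bases before to 50 after the annotated start), and every window occurred once, unchanged, in GRCm39, whose coordinates are given here. The crypt-base receptors and the ephrin-B ligands carry the findings, so the 200 bases before the more upstream of their RefSeq and GENCODE starts, outside the annotated transcripts, are shown, 5′ to 3′ on the strand of the gene, with CG dinucleotides in capitals. Ephb2 lies at chr4:136563352-136563551 on the minus strand, Ephb3 at chr16:21023295-21023494 on the plus strand, Efnb1 at chrX:98179467-98179666 on the plus strand and Efnb2 at chr8:8711250-8711449 on the minus strand.
Ephb2: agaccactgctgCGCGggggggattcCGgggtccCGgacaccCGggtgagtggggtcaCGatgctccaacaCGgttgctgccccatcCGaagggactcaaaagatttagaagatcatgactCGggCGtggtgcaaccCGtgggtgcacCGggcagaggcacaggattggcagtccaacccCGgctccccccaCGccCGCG
Ephb3: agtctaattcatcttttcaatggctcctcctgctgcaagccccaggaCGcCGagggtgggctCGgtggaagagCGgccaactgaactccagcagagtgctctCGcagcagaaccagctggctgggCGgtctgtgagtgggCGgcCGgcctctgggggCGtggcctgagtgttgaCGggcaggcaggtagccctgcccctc
Efnb1: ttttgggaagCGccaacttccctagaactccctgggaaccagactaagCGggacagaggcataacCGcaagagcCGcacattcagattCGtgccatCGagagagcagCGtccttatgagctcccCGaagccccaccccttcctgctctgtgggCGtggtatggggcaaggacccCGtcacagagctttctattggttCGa
Efnb2: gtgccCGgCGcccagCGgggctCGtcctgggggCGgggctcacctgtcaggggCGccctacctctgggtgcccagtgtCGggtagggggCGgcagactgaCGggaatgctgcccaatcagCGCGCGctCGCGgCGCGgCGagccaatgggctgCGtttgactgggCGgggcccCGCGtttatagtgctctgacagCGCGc

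These stretches hold 16 CG pairs before Ephb2, 10 before Ephb3, 11 before Efnb1 and 23 before Efnb2. Over 250 bases the counts were 20, 16, 13 and 27 in the same order, where the quartiles over all 32851 windows were 2 and 16 and the median was 6. The 300-base windows were also searched on both strands for the TCF/LEF word CTTTGAA, the variant of it CTTTGAT, another variant CTTTGTA and the form CTTTGTT, all of which share their opening letters. At least 1 word stood in 16.9% of all windows and in the window of 1 of the 10 members, Epha2, whose word begins 209 bases before the start. The stretch around it, chr4:141028313-141028339 on the plus strand, is shown with the word in capitals.
Epha2: cctggtggcgCTTTGAAatgagaaatc

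No word was found in the windows of Ephb2, Ephb3, Efnb1 or Efnb2, which says only that these letters are not in these 300 bases.

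The contrast of organoid AKP with control sets recombined against unrecombined cells in ordinary organoid culture. The study expanded tumour organoids without WNT ligand and other added growth factors, and its healthy organoids did not grow without them. The part of culture conditions in this contrast was not tested. Ephb2 and Ephb3, the crypt-base receptors, rose in organoid AKP, and Efnb1 and Efnb2, the transmembrane ligands of the upper crypt, fell. Folds were 3.55 and 1.88 upward and 4.10 and 2.30 downward. The other 6 receptors did not pass the test.

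Ephb2 was at 81.4, 94.8 and 113 CPM (lowest, median and highest) in organoid AKP, against 16.3, 26.3 and 34.7 CPM in control. The groups did not overlap, and the highest control library lay well under the lowest organoid AKP library. This gave a log2 fold change of 1.83 ± 0.15 (SE, n = 6 each, edgeR quasi-likelihood test, adjusted p = 4.04e-13). Libraries of letter E alone gave 2.16 (adjusted p = 4.11e-15) and those of letter F 1.57 (adjusted p = 7.54e-19), and control libraries of letter F had more Ephb2 than those of letter E.

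Ephb3, which shares ligands with Ephb2, was at 56.1, 60.3 and 91.7 CPM in organoid AKP, against 33.7, 35.2 and 41.2 CPM in control. These ranges did not overlap either, although the organoid AKP libraries were spread widely, at 62.6, 91.7 and 87.4 CPM with letter E and at 56.1, 57.2 and 58.0 CPM with letter F. The log2 fold change was 0.91 ± 0.13 (edgeR, adjusted p = 3.09e-07), with 1.14 for letter E alone (adjusted p = 8.78e-06) and 0.56 for letter F alone (adjusted p = 7.81e-06).

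Efnb1, an X-linked gene, was at 60.5, 88.5 and 116 CPM in organoid AKP, against 343, 365 and 398 CPM in control. Every control library lay far above every organoid AKP library. Its log2 fold change of -2.04 ± 0.13 (edgeR, adjusted p = 8.37e-16) had the largest size among the 10 members in this contrast, with -2.42 for letter E alone (adjusted p = 2.74e-22) and -1.85 for letter F alone (adjusted p = 6e-25). Efnb2, the ligand of EphB4 in vessels, was at 63.9, 72.4 and 77.0 CPM in organoid AKP, against 131, 165 and 203 CPM in control. In control the libraries formed 2 sets by letter, 196 to 203 CPM with E and 131 to 135 CPM with F, and both sets lay above all organoid AKP libraries. The log2 fold change was -1.20 ± 0.13 (edgeR, adjusted p = 7.51e-10), with -1.47 for letter E alone (adjusted p = 6.17e-15) and -0.99 for letter F alone (adjusted p = 4.86e-13).

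**Figure D1:**
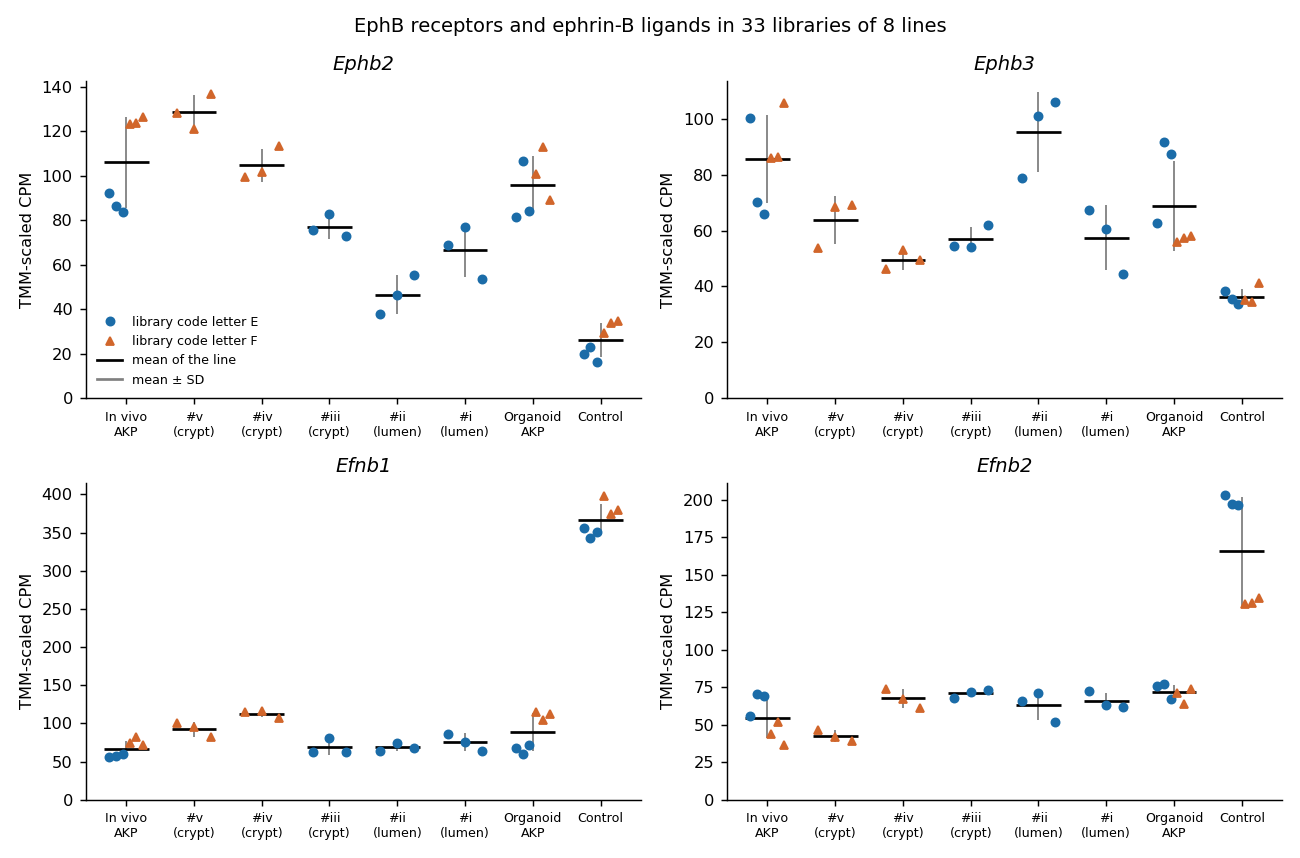
TMM-scaled CPM (y axis, from 0) of Ephb2, Ephb3, Efnb1 and Efnb2 in every library of the 8 lines (x axis). Blue circles are libraries of code letter E, orange triangles those of letter F, the black bar is the line mean and the grey line its SD; in all 27 AKP libraries Ephb2 and Ephb3 lie above, and Efnb1 and Efnb2 below, the 6 control libraries.

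In this contrast 4 of the 10 members were called, 2 of them higher and 2 lower, where 71% of all 13606 genes were called, 37.3% higher and 33.6% lower, so the share of members called was below that of all genes. The median log2 fold change of the members was 0.24, and that of all genes tested was 0.06. Among the 6 uncalled receptors, Ephb4, a receptor of ephrin-B2, was at 0.50 ± 0.28 on the log2 scale (adjusted p = 0.111) and Epha2, an epithelial receptor of ephrin-A1, at 0.61 ± 0.32 (adjusted p = 0.0886). Both passed the threshold when the letter was a term in the model, Ephb4 at 0.56 (adjusted p = 0.00624) and Epha2 at 0.62 (adjusted p = 0.031). Epha4, which binds ligands of both classes, was at 95.5 ± 4.07 CPM in organoid AKP against 105 ± 10.8 CPM for control (SD, n = 6 each), a log2 difference of -0.13 ± 0.08 (edgeR, adjusted p = 0.16) that reached -0.21 (adjusted p = 0.0258) when the libraries were scaled by relative log expression (RLE). Ephb6, whose kinase domain is inactive, was at 3.39 ± 1.59 CPM in organoid AKP against 3.87 ± 1.28 CPM for control, and Epha1 was at 6.39 ± 1.76 CPM and 6.49 ± 1.84 CPM in the same order. Epha7 had 6 counts over the 6 organoid AKP libraries and 2 over the 6 control libraries.

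The opposed change in receptor and ligand can be read within each library, where scaling does not enter. Ephb2 had 0.585 to 1.77 counts for each Efnb1 count in the 27 AKP libraries, with a median of 1.16, and 18 of them had more Ephb2 than Efnb1 counts. In the 6 control libraries the ratio ran between 0.0464 and 0.0913, with a mean of 0.0709 ± 0.0181 (SD). Because the position of reads in each gene also enters such a ratio, it serves to compare lines and not the 2 genes.

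**Figure D2:**
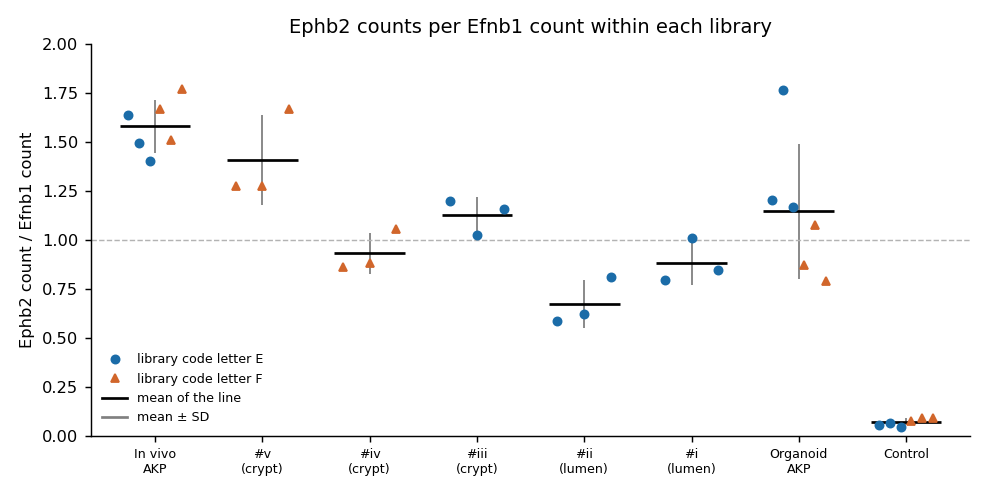
Ephb2 counts divided by Efnb1 counts in each library (y axis, linear from 0; the dashed line marks 1) for the 8 lines (x axis), with code letters by colour and shape, the mean as a black bar and the SD as a grey line. In vivo AKP libraries lie between 1.40 and 1.77, line #v between 1.28 and 1.67, line #ii between 0.585 and 0.81, and control at or under 0.0913.

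The same separation from control held in all 7 AKP lines. Over their 27 libraries Ephb2 ran between 37.6 and 136 CPM with a median of 88.9, and the highest control library was at 34.7 CPM. Ephb3 ran between 44.6 and 106 CPM with a median of 65.8, above the highest control library at 41.2 CPM. Efnb1 ran between 56.3 and 116 CPM, under the lowest control library at 343 CPM, and Efnb2 between 36.7 and 77.0 CPM, under the lowest control library at 131 CPM. None of the 27 AKP libraries overlapped the 6 control libraries for any of these 4 genes. They are the members called in organoid AKP against control, where 71% of all genes were called. The share of all genes separated in this way was not counted. Of the contrasts with control only that of organoid AKP was tested.

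The ligands of the A class and the remaining family members were read beside the members, as 12 further genes of which 7 passed the filter on low values. Efna1, a lipid-anchored ligand of EphA2, was at 11.2, 17.3 and 36.4 CPM in organoid AKP, against 80.5, 113 and 137 CPM in control, and fell by 2.37 ± 0.31 on the log2 scale (edgeR, adjusted p = 8.13e-08). Its fold within letter F differed from that within letter E by 0.72 (interaction, adjusted p = 0.0300). Efna5 rose in organoid AKP, at 45.0 ± 6.62 CPM against 20.3 ± 4.78 CPM in control, 1.14 ± 0.12 higher on the log2 scale (edgeR, adjusted p = 5.52e-10). Efna4 rose by 0.36 ± 0.12 (adjusted p = 0.00702). Epha3, with 1 count over the 6 organoid AKP libraries and 7 over the 6 control libraries, passed the filter only through in vivo AKP libraries and rests on too few counts to give a direction. Efna2, Efna3 and Efnb3 were not called, and Epha5, Epha6, Epha8, Epha10 and Ephb1 were too low to be tested, with 0 to 41 counts each over all 33 libraries.

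Of the 32 genes fixed as signalling partners of Eph receptors and ephrins, 26 were called in organoid AKP against control, 9 higher and 17 lower, where 71% of all genes were called, with a median log2 fold change of -0.28. Kalrn, the partner with the smallest p, was among those that fell, with a log2 fold change of -6.07 (edgeR, adjusted p = 1.07e-17). Among the 9 that rose, Fyn, a Src-family kinase bound by activated Eph receptors, was 6.21 higher on the log2 scale (adjusted p = 1.13e-17) and Tiam1, a Rac activator recruited by ephrin-B ligands and EphA2, 1.96 higher (adjusted p = 2.34e-16). All 15 crypt base and WNT target genes rose, with a median of 3.50, among them Sox9, a transcription factor of crypt progenitors, and Ascl2, a WNT-driven stem cell regulator, at 3.31 and 6.28. Of 16 tested colonocyte genes of the upper crypt and lumen, 14 fell and 1 rose, with a median of -7.09, among them the keratin Krt20 at -9.41 and the brush-border phosphatase Alpi at -9.69. The part of these changes in the values of the 4 called members was not tested.

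In vivo AKP was next set against organoid AKP, organoids grown from tumours of mice against organoids recombined in culture. Ephb3 was called higher in in vivo AKP, and Efnb1 and Efnb2 lower, each by at most 1.35-fold. Ephb2 did not pass the test. Epha7 was called higher too, but it had entered the test mainly through in vivo AKP libraries. Of the 10 members 4 were called, Epha7 included, where 34.4% of all genes were called, 17.4% higher and 17% lower, so the share of members called was near that of all genes. The median log2 fold change was -0.03 over the members and 0.00 over all genes.

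Ephb3 was at 65.8, 86.3 and 106 CPM in in vivo AKP, against 56.1, 60.3 and 91.7 CPM in organoid AKP. The ranges overlapped, and the log2 fold change was 0.33 ± 0.13 (edgeR, adjusted p = 0.0479), and leaving out any 1 of 8 of the 12 libraries ended the call (organoid AKP replicates 1, 4, 5 and 6 and in vivo AKP replicates 1, 4, 5 and 6, adjusted p up to 0.14). Within letter F the fold change was 0.72 on the log2 scale (adjusted p = 7.55e-08), where in vivo AKP libraries were at 86.1, 86.4 and 106 CPM and organoid AKP libraries at 56.1, 57.2 and 58.0 CPM. Within letter E it was -0.02 (adjusted p = 0.952), with in vivo AKP libraries at 100.4, 70.1 and 65.8 CPM and organoid AKP libraries at 62.6, 91.7 and 87.4 CPM. The 2 within-letter folds differed by 0.74 (interaction, adjusted p = 0.00777).

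Ephb2 was at 83.7, 108 and 126 CPM in in vivo AKP, against 81.4, 94.8 and 113 CPM in organoid AKP, with a log2 fold change of 0.14 ± 0.14 (edgeR, adjusted p = 0.466). With letter F the in vivo AKP libraries stood apart at 123, 124 and 126 CPM, against 101, 113 and 88.9 CPM in organoid AKP, and the fold of 0.32 within that letter was called (adjusted p = 0.00234). Within letter E it was -0.04 (adjusted p = 0.858), and the test of the difference between letters gave 0.35 (adjusted p = 0.101).

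Efnb1 was at 56.3, 65.5 and 82.0 CPM in in vivo AKP, against 60.5, 88.5 and 116 CPM in organoid AKP, with a log2 fold change of -0.43 ± 0.13 (edgeR, adjusted p = 0.00916). Within each letter the 3 in vivo AKP libraries lay under the 3 organoid AKP libraries, at -0.19 (adjusted p = 0.217) for E and -0.54 (adjusted p = 6.21e-07) for F. Efnb2 was at 36.7, 53.6 and 70.3 CPM in in vivo AKP, against 63.9, 72.4 and 77.0 CPM in organoid AKP, and overlapped between them. Its log2 fold change was -0.39 ± 0.13 (edgeR, adjusted p = 0.0236), with -0.67 for letter F alone (adjusted p = 7.53e-07) and -0.16 for letter E alone (adjusted p = 0.324). The 2 within-letter folds of Efnb2 differed by -0.51 (interaction, adjusted p = 0.0146), and the call ended without any 1 of organoid AKP replicates 1, 2 and 3 or in vivo AKP replicates 4 and 6 (adjusted p up to 0.0832). When only these 2 lines were fitted, the folds of Ephb3, Efnb1 and Efnb2 were 0.35, -0.39 and -0.35 and none was called (adjusted p = 0.119, 0.103 and 0.113).

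Epha7, an EphA receptor best known from the nervous system, was close to the limit of detection. It had 2 to 13 counts in each in vivo AKP library, 35 in all, against 0 to 3 counts in each organoid AKP library, 6 in all. The groups overlapped, and the log2 fold change was 2.32 ± 0.71 (edgeR, adjusted p = 0.0108). Of the 4 libraries that took Epha7 past the filter 3 were in vivo AKP, enough to pass it by themselves, so the filter and this direction are not independent. With no filter on low values its log2 fold change was 2.31 (edgeR, adjusted p = 0.0154), from the same few counts. The call of Epha7 is therefore not read as a result. Epha3 passed the filter through 4 in vivo AKP libraries alone, so its values are given with no test, at 0.192 to 2.0 CPM in in vivo AKP and 1 count over the 6 organoid AKP libraries. Marker genes of other cell types were higher in the same libraries: fibroblast and smooth muscle markers summed to 38.6 to 276 CPM in in vivo AKP, against 4.43 to 22.7 CPM for organoid AKP, of which Vim alone was at 37.4 to 275 CPM and 4.09 to 21.7 CPM in the same order. Of these 10 markers, 4 had no count in in vivo AKP (Col3a1, Des, Dcn and Lum) and 6 had none in organoid AKP (Col1a2, Col3a1, Pdgfrb, Acta2, Des and Lum). Endothelial markers summed to 3.92 to 30.1 CPM in in vivo AKP, against 2.43 to 7.41 CPM for organoid AKP, with 1 of 8 markers at 0 in every in vivo AKP library and 5 of 8 in every organoid AKP library. Neither the presence of fibroblasts, smooth muscle or endothelial cells nor their part in the Epha3 and Epha7 counts was tested.

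Among the ephrin-A ligands, Efna5 and Efna3 were called lower in in vivo AKP. Efna5 was at 24.96 ± 3.50 CPM in in vivo AKP against 45.0 ± 6.62 CPM for organoid AKP (SD, n = 6 each), with no overlap, and fell by 0.86 ± 0.12 on the log2 scale (edgeR, adjusted p = 6.61e-07). Efna3 fell by 0.92 ± 0.28 (adjusted p = 0.00885). Its means were 2.37 CPM in in vivo AKP against 7.29 CPM in organoid AKP with letter E, and 7.13 against 9.77 CPM with letter F. The 2 within-letter folds of Efna3 differed by 1.14 (interaction, adjusted p = 0.0291). Ephb4 was at 7.12 ± 3.99 CPM in in vivo AKP against 10.8 ± 3.57 CPM for organoid AKP, a log2 difference of -0.67 ± 0.28 (edgeR, adjusted p = 0.0671) that passed the threshold with the letter as a term, at -0.65 (adjusted p = 0.00412). Epha2, Epha4, Epha1 and Ephb6 had log2 fold changes of -0.28, -0.06, -0.00 and 0.13 and were not called. Among the 32 signalling partners 8 were higher and 4 lower, a share near the 34.4% of all genes, with Grb10, an adaptor that binds activated receptor tyrosine kinases, at 2.49. Of the 15 crypt base and WNT target genes, 10 were higher in in vivo AKP and 1 lower.

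**Figure D3:**
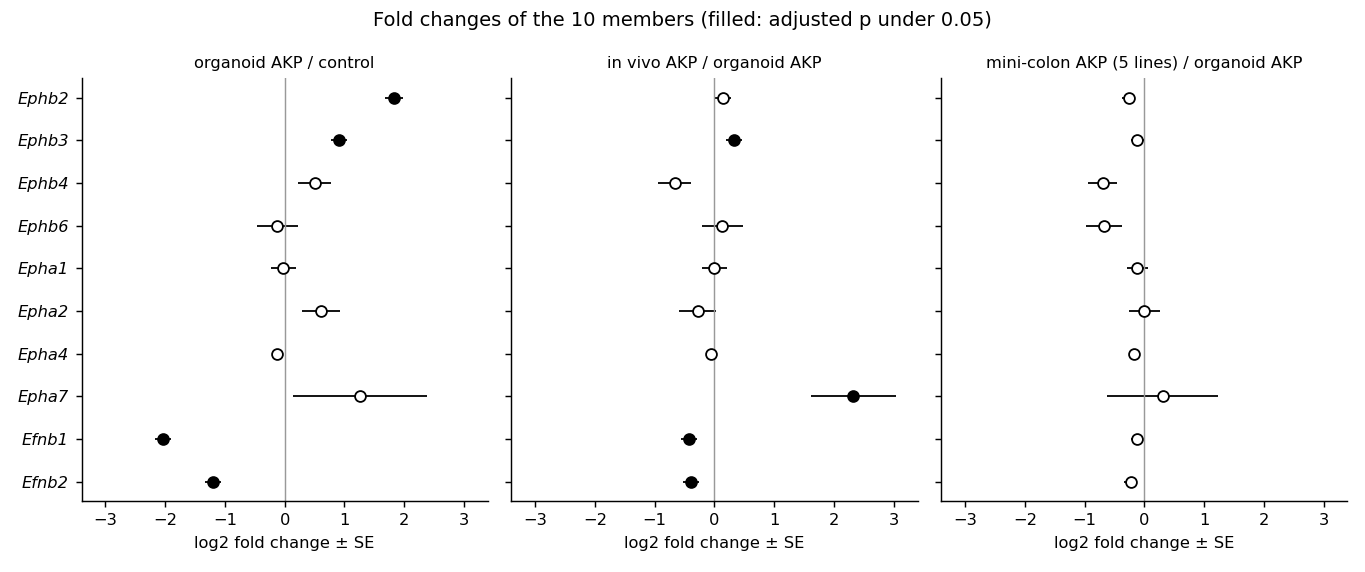
Log2 fold changes with SE (x axis) of the 10 members (rows) in organoid AKP over control, in vivo AKP over organoid AKP, and the 5 mini-colon AKP lines over organoid AKP, from the edgeR fit of all 33 libraries. Filled points have an adjusted p under 0.05: Ephb2 at 1.83 and Efnb1 at -2.04 lie farthest from 0 among those filled in the first panel, and no point is filled in the third.

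The 5 mini-colon AKP lines, each weighted equally, were compared as a set with organoid AKP. No member passed the test, where 10.7% of all genes were called. DESeq2 and limma-voom also called no member. At an unadjusted p under 0.05, 5 of the 10 members were lower over the mean of the 5 lines (Ephb2, Ephb4, Ephb6, Epha4 and Efnb2). The share of all genes past that unadjusted threshold was not counted. Line means of Epha4 and Efnb2 were below organoid AKP in all 5 lines. Those of Ephb2, Ephb4 and Ephb6 were below it in lines #i to #iii and above it in lines #iv and #v. For Ephb4 the means were 17.2 CPM in line #v and 12.7 CPM in line #iv, against 10.8 CPM in organoid AKP. Ephb2 was at 84.6 ± 30.8 CPM over the 15 mini-colon libraries and 95.8 ± 12.9 CPM over the 6 organoid AKP libraries (SD). Ephb4 was at 8.42 ± 5.82 CPM in the mini-colon lines and 10.8 ± 3.57 CPM in organoid AKP, with a log2 fold change of -0.70 ± 0.24 (edgeR, adjusted p = 0.0533), and passed with the letter as a term at -0.47 (adjusted p = 0.0438), as did Efnb2 at -0.29 (adjusted p = 0.0121). Within letter E, Ephb2 was lower in lines #i to #iii than in organoid AKP, at -0.55 (adjusted p = 0.000227), and within letter F it was at 0.20 (adjusted p = 0.0604) in lines #iv and #v. Efna3, Efna4 and Efna5 were each called lower over the mean of the mini-colon lines, at -1.07, -0.31 and -0.40. For Efna4 this did not hold in every line. Its libraries were at 11.2 to 20.2 CPM in lines #i to #iii and at 23.9 to 32.6 CPM in lines #iv and #v, against 21.8 to 25.6 CPM in organoid AKP.

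The mini-colon lines differed among themselves. In a test of any difference among the 5 lines, 6 of the 10 members passed (Ephb2, Ephb3, Ephb4, Ephb6, Efnb1 and Efnb2), where 46.7% of all genes passed. Ephb2 had the smallest adjusted p of these, 6.29e-06. Epha1, Epha2, Epha4 and Epha7 did not pass, with adjusted p between 0.157 and 0.884.

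Crypt-enriched lines were then set against lumen-enriched lines, the comparison of tumour origin. Ephb2 was 1.82-fold higher in crypt lines #iii, #iv and #v than in lumen lines #i and #ii. Ephb4, Ephb6 and Efnb1 were also called higher, and Ephb3 lower. Of the 10 members 5 were called, where 28.5% of all genes were called, 14% higher and 14.5% lower. The median log2 fold change of the members was 0.39, and that of all genes 0.01. Lines #iv and #v carry letter F and all lumen lines carry letter E, so tumour origin and letter are largely tied together, and with the letter as a term in the model 13.8% of all genes and 1 member, Ephb2, were called.

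Ephb2 was at 128, 121 and 136 CPM in line #v, at 99.2, 102 and 113 CPM in line #iv and at 75.4, 82.8 and 72.6 CPM in line #iii, against 37.6, 46.5 and 55.3 CPM in line #ii and 68.7, 76.8 and 53.4 CPM in line #i. The crypt libraries began at 72.6 CPM and the lumen libraries ended at 76.8 CPM, so that the ranges overlapped only between lines #iii and #i. Over all lines the log2 fold change was 0.86 ± 0.13 (edgeR, adjusted p = 1.32e-05). It was 0.57 (adjusted p = 0.000275) with the letter as a term, a model that takes 1 letter effect for all lines. For Ephb2 the log2 fold change of letter F over E was 0.72 in control, 0.16 in organoid AKP and 0.51 in in vivo AKP. Line #iii, the crypt line that shares letter E with the lumen lines, had a log2 fold change of 0.47 ± 0.17 over lines #i and #ii (adjusted p = 0.0938), and this contrast was called at 0.46 (adjusted p = 0.0054) when only these 3 lines were fitted and at 0.47 (adjusted p = 0.00917) with the letter as a term.

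In the order of the line means, Ephb2 was highest in line #v (129 CPM), followed by in vivo AKP (106), line #iv (105), organoid AKP (95.8), line #iii (77.0), line #i (66.3), line #ii (46.5) and control (26.2). Each neighbouring pair overlapped in range except line #ii and control. Ephb3 had another order, with line #ii highest (95.4 CPM), followed by in vivo AKP (85.8), organoid AKP (68.8), line #v (63.9), line #i (57.4), line #iii (56.9), line #iv (49.5) and control (36.3). Here the neighbours overlapped except line #iii with line #iv and line #iv with control.

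Ephb3 was at 53.9, 68.5 and 69.2 CPM in line #v, at 46.1, 53.1 and 49.4 CPM in line #iv and at 54.4, 54.3 and 62.1 CPM in line #iii, against 79.0, 101 and 106 CPM in line #ii and 67.3, 60.4 and 44.6 CPM in line #i. Line #ii alone stood above the crypt lines, and line #i overlapped all of them. The log2 fold change of crypt over lumen lines was -0.39 ± 0.12 (edgeR, adjusted p = 0.0135), at -0.34 (adjusted p = 0.0843) with the letter as a term. Without replicate 1 of line #i the adjusted p was 0.0506, and line #iii alone was at -0.38 (adjusted p = 0.17), or -0.40 (adjusted p = 0.0192) when only lines #i to #iii were fitted. The fold changes of the crypt receptors Ephb2 and Ephb3 thus had opposite signs, but for Ephb3 only line #ii, not line #i, stood apart from the crypt lines. The count of Ephb2 for each Ephb3 count was 1.76 to 2.38 in line #v, 1.92 to 2.29 in line #iv and 1.17 to 1.53 in line #iii, against 0.461 to 0.52 in line #ii and 1.02 to 1.27 in line #i.

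Ephb4 split the lines by letter. It was at 15.5, 18.8 and 17.3 CPM in line #v, at 13.8, 13.3 and 10.97 CPM in line #iv and at 2.76, 3.84 and 4.21 CPM in line #iii, against 3.45, 5.26 and 4.43 CPM in line #ii and 2.34, 5.26 and 5.11 CPM in line #i. The 2 crypt lines of letter F stood apart from the other 3 lines, and line #iii overlapped both lumen lines. The log2 fold change of 1.10 ± 0.30 (edgeR, adjusted p = 0.00725) became 0.39 (adjusted p = 0.277) with the letter as a term and -0.26 (adjusted p = 0.819) for line #iii alone. Within single lines Ephb4 was likewise higher with F than with E, at 10.4 ± 2.62 CPM (F) against 3.81 ± 0.52 CPM (E) in in vivo AKP, 13.3 ± 2.33 against 8.33 ± 2.83 CPM for organoid AKP, and 10.1 ± 1.95 against 4.58 ± 1.40 CPM for control (SD, n = 3 each). All 3 of these differences passed the test (edgeR, adjusted p = 3.51e-06, 0.0186 and 0.00198). EphB4 and ephrin-B2 are best known from veins and arteries. The 8 endothelial markers summed to 3.72 to 5.73 CPM in line #v, 7.87 to 8.36 CPM in line #iv and 1.10 to 2.10 CPM in line #iii, against 0.526 to 3.16 CPM in line #ii and 1.17 to 2.72 CPM in line #i. Their sum was thus higher in the 2 crypt lines of letter F. Of the 8, 4 had no count in line #v, 5 in line #iv, 5 in line #iii, 4 in line #ii and 5 in line #i. Only 3 of these markers passed the filter on low values, and 0 of them were called in crypt against lumen lines. Neither the presence of endothelial cells nor their part in the Ephb4 values was tested.

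Efnb1 was at 101, 94.7 and 81.7 CPM in line #v, at 115, 116 and 107 CPM in line #iv and at 63.0, 81.0 and 62.8 CPM in line #iii, against 64.4, 74.9 and 68.2 CPM in line #ii and 86.6, 76.2 and 63.3 CPM in line #i. Lines #iii, #ii and #i covered much the same range. The log2 fold change was 0.31 ± 0.12 (edgeR, adjusted p = 0.0486), the call ended without any 1 of 11 of the 15 libraries, and it was 0.04 (adjusted p = 0.842) with the letter as a term and -0.06 (adjusted p = 0.895) for line #iii alone. Ephb6 had 0 to 10 counts in each lumen library and 3 to 30 in each crypt library, with a log2 fold change of 1.39 ± 0.40 (edgeR, adjusted p = 0.0098) that was 0.86 (adjusted p = 0.153) with the letter as a term.

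Efnb2 did not differ past the threshold between crypt and lumen lines, at 60.2 ± 14.0 CPM over the 9 crypt libraries and 64.3 ± 7.47 CPM over the 6 lumen libraries (SD), with a log2 fold change of -0.13 ± 0.12 (edgeR, adjusted p = 0.454). It was low in line #v, at 46.4, 41.9 and 38.9 CPM, and at 61.4 to 73.6 CPM in lines #iv and #iii. Line #v fell below line #i by 0.64 ± 0.19 on the log2 scale (edgeR, adjusted p = 0.0163), a call that ended without replicate 1 of line #i or replicate 2 or 3 of line #v. Line #v was also called below line #iv, at -0.68 ± 0.19 (adjusted p = 0.0446), both being crypt lines of letter F with no overlap in Efnb2. That call ended with any library left out.

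In line #v against line #i, Ephb2 rose by 0.95 ± 0.20 (edgeR, adjusted p = 0.000877) and Ephb4 by 2.03 ± 0.44 (adjusted p = 0.0013) on the log2 scale. These 2 and Efnb2 were the 3 of 10 members called, where 24.5% of all genes were called. With the letter as a term Ephb2 stayed past the threshold, at 0.52 (adjusted p = 0.0364), and Ephb4, at 0.98 (adjusted p = 0.054), and Efnb2, at -0.22 (adjusted p = 0.445), did not. In line #v against line #iv Efnb2 was the 1 member called, where 3.15% of all genes were called, and Ephb2 was at 0.30 ± 0.19 (adjusted p = 0.491) although its ranges did not overlap. In line #iii against the lumen lines 0 of 10 members were called by edgeR, where 7.17% of all genes were. DESeq2 and limma-voom also called no member. An unadjusted p under 0.05 was reached by 2 of 10, Ephb2 and Ephb3, and the share of all genes past it was not counted.

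**Figure D4:**
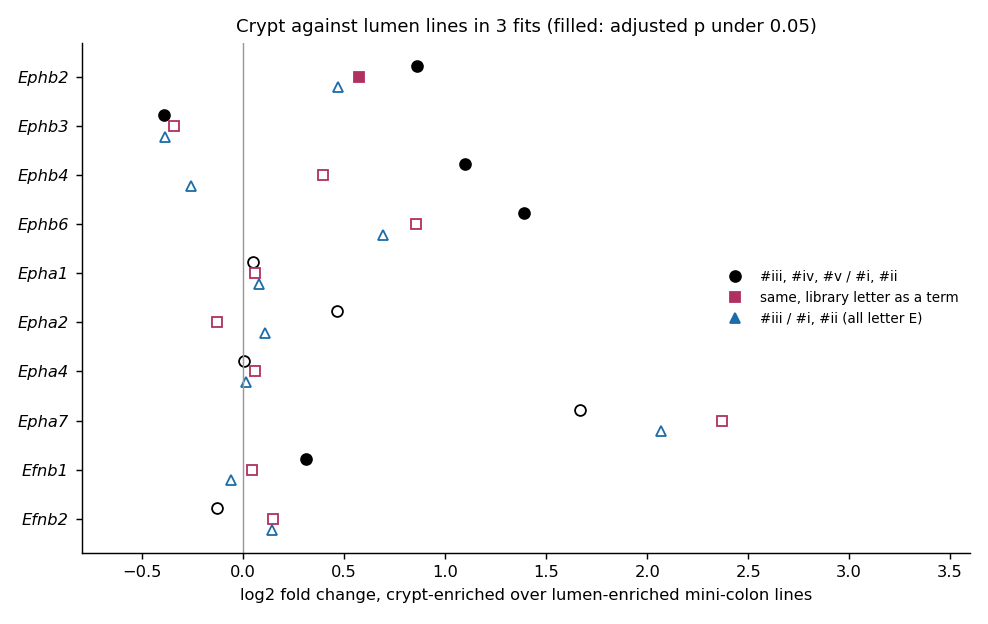
Log2 fold changes (x axis) of the 10 members (rows) in crypt-enriched over lumen-enriched mini-colon lines, in the fit of all lines (black circles), with the library letter as a term (red squares) and for line #iii alone (blue triangles); filled points have an adjusted p under 0.05. Ephb2 is at 0.86, 0.57 and 0.47 and filled in the first 2 fits, whereas Ephb4 is at 1.10, 0.39 and -0.26 and filled in the first alone.

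Outside the members, Efna4, Efna3 and Efna2 were called higher in crypt than in lumen lines, at 0.50 ± 0.11, 0.83 ± 0.30 and 1.31 ± 0.49 on the log2 scale. In line #iii alone these were at -0.14, 0.23 and -0.15, uncalled. Of 15 crypt base and WNT target genes 7 were called higher in crypt lines and none lower, with a median of 0.80, among them the stem cell receptor Lgr5 at 1.08 and the WNT target Axin2 at 0.76, and in line #iii alone none of the 15 was called, with a median of -0.08. Of 32 signalling partners 8 were higher and 3 lower in crypt lines, a share near the 28.5% of all genes, among them Pak1, a kinase downstream of Rac, at 0.71, Abl1, a kinase that EphB2 binds, at 0.71 and Itsn1, a Cdc42 exchange factor that works with EphB2, at 0.43. In line #iii alone 1 partner was called higher and 1 lower, and Pak1, Abl1 and Itsn1, at 0.31, 0.20 and 0.20, were uncalled.

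Epha1, Epha2 and Epha4 were called in none of these contrasts. Epha2 was between 28.3 and 106 CPM over the 27 AKP libraries and between 21.01 and 71.4 CPM over the 6 control libraries, and single lines spanned much of that range, with in vivo AKP at 28.3, 52.0 and 102 CPM (lowest, median and highest) and line #ii at 83.0, 60.5 and 31.8 CPM. Epha4 was between 68.4 and 102 CPM in the AKP libraries and between 86.7 and 120 CPM in control. Epha1, the founding member of the family, was between 4.34 and 8.64 CPM in the AKP libraries and 4.20 and 8.64 CPM in control. Epha7 had a count in 20 of 33 libraries and never more than 13.

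**Figure D5:**
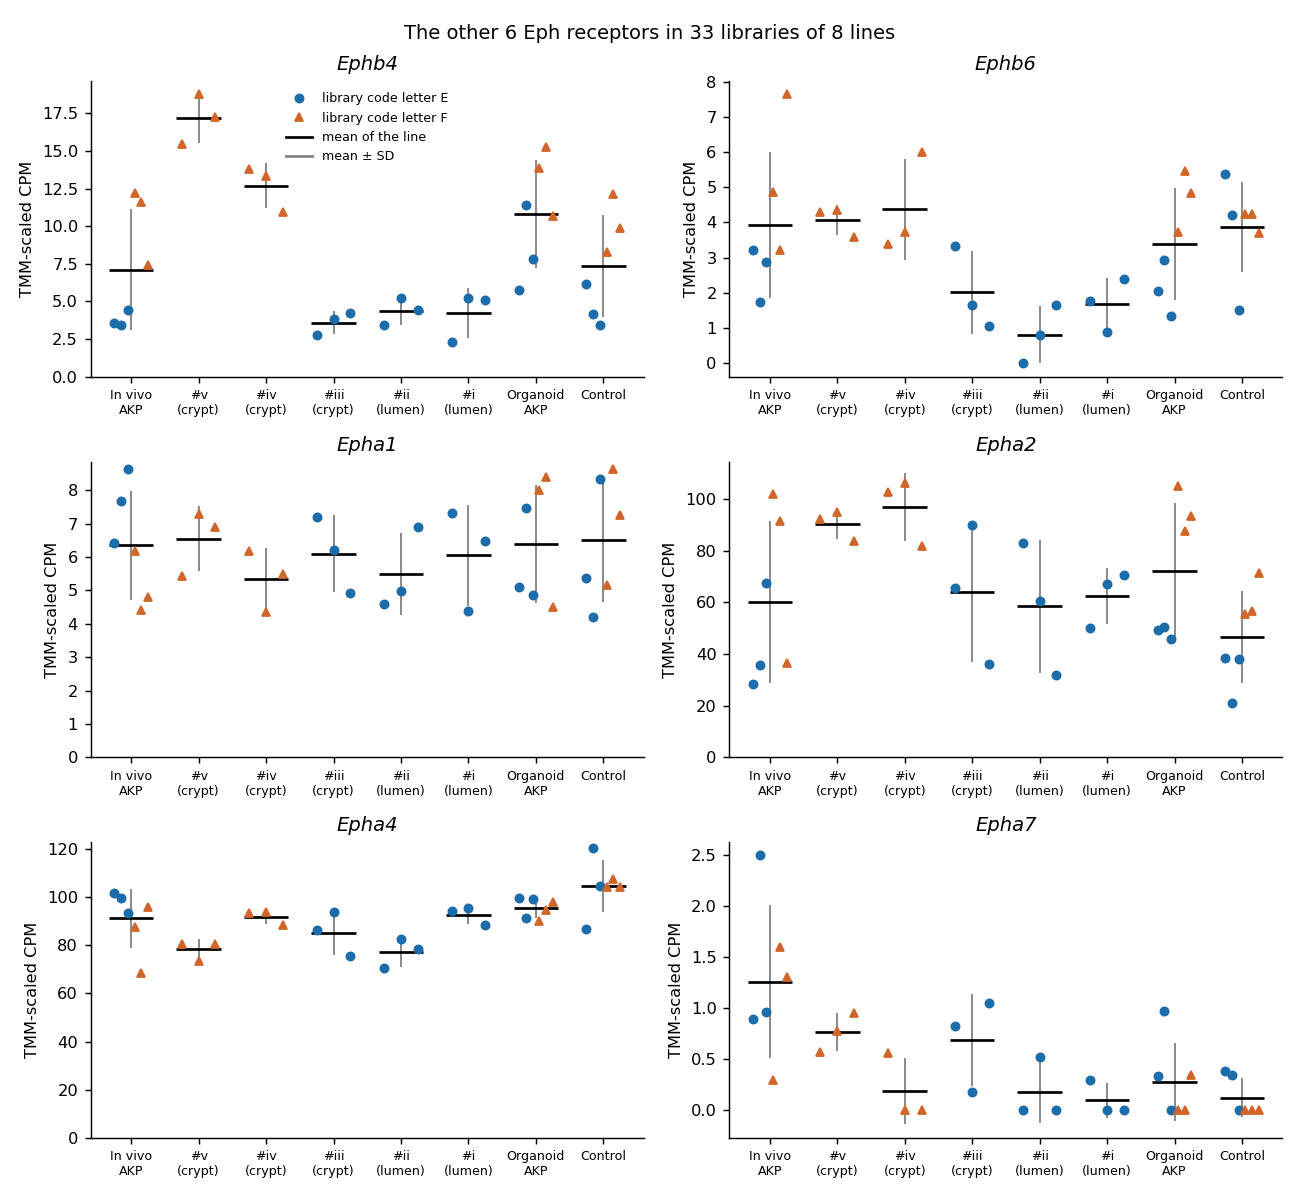
TMM-scaled CPM (y axis) of the 6 other Eph receptors in every library of the 8 lines (x axis), with code letters by colour and shape, line means as black bars and SD as grey lines. Ephb4 in lines #v and #iv lies between 10.97 and 18.8 CPM and in lines #iii, #ii and #i between 2.34 and 5.26 CPM, while Epha4 lies between 68.4 and 120 CPM throughout.

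Genes whose levels followed those of a member most closely were sought by Pearson correlation of log2 CPM over the 33 libraries, among 9791 named protein-coding genes with a mean of at least 5 CPM. These points share lines and letters, and the correlations are descriptions. Ephb2 was most like Idh2, the mitochondrial isocitrate dehydrogenase (r = 0.964), Pde2a, a cyclic nucleotide phosphodiesterase (0.960) and Prelid2 (0.957). Ephb3 was most like Atp6ap2 (0.880), Tsr3 (0.873) and Smarca4, a chromatin remodeller (0.870). Efnb1 was most like Krt19, a keratin of simple epithelia (0.979), the choline transporter Slc44a1 (0.975) and the transcriptional coregulator Cited2 (0.970).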

How the data were processed

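RNA of 33 libraries from 8 lines was measured by QuantSeq 3′ mRNA sequencing. The authors deposited raw counts per Ensembl gene identifier, 1 file per library, made from reads aligned with STAR to GRCm39; the counting program, annotation and use of strand are not given in the sources used here. The submitters' processing notes name R 4.1.2, edgeR and limma. Of 32285 identifiers, 611 had no gene name in the table used and held up to 6.85% of counts; they stayed in the fit.

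Counts were scaled by trimmed mean of M values (TMM) and tested with edgeR 4.0.16 (robust quasi-likelihood fit, R 4.3.3) in 1 model with a coefficient per line, on the 13606 identifiers that reached 1 CPM in 3 or more libraries. P-values were adjusted by Benjamini-Hochberg over all of them, with a threshold of 0.05. Groups follow the labels; crypt and lumen enrichment of the mini-colon lines follows the study's text for lines #v and #i and its plot symbols for the others. The members and gene lists were chosen with earlier results of these data known. Named genes were all 10 members, other family members that passed the filter, up to 3 called genes with the smallest p per other list and comparison, and for likeness 3 genes each for Ephb2, Ephb3 and Efnb1. Scripts were tested on simulated data. Alternatives were RLE and upper-quartile scaling, other filters, DESeq2 1.42.0, limma-voom (limma 3.58.1), subsets of lines and letters, the letter or replicate number as a term, and leaving out each library. Levels of low genes are limited by counting: total counts were 2438672 to 8256526 per library. Some items of the genotype and of the gene lists are not reported here.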

Additional observations from a re-analysis of the deposited data

Results flagged for a closer look

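The fold changes of 4 members differed between libraries of letter F and letter E, by a test of the difference itself (edgeR, interaction term, F minus E on the log2 scale). In in vivo AKP against organoid AKP the difference was 0.74 for Ephb3 (adjusted p = 0.00777) and -0.51 for Efnb2 (adjusted p = 0.0146), where 20.8% of all genes differed. In organoid AKP against control it was -0.56 for Ephb2 (adjusted p = 0.0408), 0.60 for Efnb1 (adjusted p = 0.00108) and 0.51 for Efnb2 (adjusted p = 0.0117), where 13.9% of all genes differed. In organoid AKP against control these 3 genes kept their direction within both letters.

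Epha7 in organoid AKP replicate 2, at 0.975 CPM from 3 counts, lay far above the other 5 libraries of that line by Dixon's test. It was 1 of 30 groups of 6 libraries tested, and chance flags about 1 in 20.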

How the results depend on the processing

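Over 15 other settings and 33 libraries left out in turn, 1641 of 1756 results for single members kept their call, 60 lost it, 52 gained it and 3 turned direction; 75 sign changes of members called in neither fit are counted among the 1641. Turned were Ephb3 in in vivo AKP against organoid AKP within letter E (-0.019), and Ephb4 (-0.26) and Efnb1 (-0.062) in line #iii alone against lumen lines. Ephb2, Ephb3, Efnb1 and Efnb2 kept their calls in organoid AKP against control under every alternative run.

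Counts of called genes moved by over 1.5 times as follows. With only the compared lines fitted they were 2646 for mini-colon lines against organoid AKP (1453 in the fit of all lines), 5932 for crypt against lumen lines (3874), 2222 for line #iii against lumen lines (975), 5861 for line #v against #i (3327) and 3030 for line #v against #iv (429). With the letter as a term they were 1882, 1628, 1264 and 1024 for the last 4, and 4023 for the test among 5 lines (6349). Mini-colon lines against organoid AKP had 2250 within letter E and 2758 within letter F, and line #iii alone had 975 against the 3874 of all crypt lines. Leaving out 1 library gave 863 to 1688 for mini-colon lines against organoid AKP (lowest without organoid AKP replicate 4 or 5), 423 to 905 for line #iii against lumen lines, 2049 to 2361 for line #v against #i and 138 to 271 for line #v against #iv.

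Replicate numbers did not pair the lines, since deviations of same-numbered libraries correlated at -0.0144 to 0.240 and not over 0.1 in every pair. As a replicate block the numbers gave 803 calls for line #v against #iv, and gained calls for Ephb4 (-0.64) in in vivo AKP against organoid AKP, Ephb4 (0.55) and Epha2 (0.60) in organoid AKP against control, Efnb2 (-0.46) in mini-colon lines against organoid AKP and Ephb2 (0.47) in line #iii against lumen lines. In in vivo AKP, organoid AKP and control, numbers 1 to 3 have letter E and 4 to 6 letter F. Lines #iv and #v have numbers 1 to 3 with letter F. The block is thus partly tied to the letter and is not a separate check. Depth limits Epha7, Epha3 and Ephb6, which rest on few counts per library.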
